A study of Caenorhabditis elegans with 78 samples.

Results

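Gain and loss of H3K4me3 peaks in lin-15B(n744) mutant larvae grown at 20 °C was read from 4 peak lists, 2 from the mutant and 2 from wild type. Overlapping peaks of these 4 lists were merged into 8612 regions. A region was called gained where both lin-15B lists and neither wild-type list had a peak, which held for 487 regions. It was called lost where both wild-type lists and neither lin-15B list had one, which held for 12. Gained regions were thus 5.65% of all merged regions and lost regions 0.139%. These calls define the members and carry no test.

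The 4 libraries were among 78 chromatin immunoprecipitation sequencing (ChIP-seq) samples of whole Caenorhabditis elegans first-stage (L1) larvae. The mutant carried the n744 allele of lin-15B and the wild type was N2. Both were grown in liquid culture on HB101 bacteria at 20 °C, and the larvae used hatched without food before freezing. Peak lists of 28 further libraries, which took no part in choosing the regions, were also read: the other 12 for H3K4me3, and 16 for H3K9me2. They came from lin-15B, lin-35(n745), lin-37(n758) and wild-type larvae at 20 and 26 °C, with 2 libraries a group, and for 26 °C the parents were shifted from 20 °C as L4 larvae. Each library came from whole animals, so a mark gained strongly in a few cells and one gained weakly in many cannot be told apart. Labels did not say whether replicates were separate cultures, so spread between replicates may be technical.

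H3K4me3, trimethylation of lysine 4 of histone H3, sits at the promoters of active genes, where it forms a sharp peak over the start site. H3K9me2, dimethylation of lysine 9, marks repressed chromatin, and in worms it is concentrated on the arms of the autosomes, which are rich in repeats. LIN-15B is a THAP-domain protein of the synMuv B class, a group of chromatin regulators known for keeping germline genes silent in somatic cells. LIN-35, a retinoblastoma-like protein, and LIN-37 belong to the DREAM repressor complex of the same class. The study's title names germline genes whose promoters carry H3K9me2. An annotation in the build of the files (ce10) was not used here, so regions are given by position and no gene is named.

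The lin-15B lists held 5529 peaks (replicate 1) and 8412 peaks (replicate 2), against 5435 and 6077 peaks in the wild-type lists, a mean of 6971 ± 2039 in lin-15B and 5756 ± 454 in wild type (SD, n = 2 each; two-sided exact permutation test, p = 0.667, where 2 against 2 can give no p under 0.333). Covered length was 4.14 and 8.33 Mb in lin-15B and 4.43 and 5.005 Mb in wild type. Replicate 2 of lin-15B stood apart, with 2335 regions called in it alone. The overlap of covered bases (intersection over union) was 0.485 between the lin-15B lists and 0.763 between the wild-type lists. It was 0.650 between the lin-15B and wild-type lists coded SSKK007 (replicates 1) and 0.581 between those coded SSTE100 (replicates 2). All 4 pairs across genotypes (0.523 to 0.650) therefore overlapped more than the lin-15B pair did. The labels do not say what the codes stand for, and their part in the results was not tested. No read counts were given, so depth is unknown, and a missing peak says that none was called.

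The most frequent outcome was a peak in all 4 lists, in 3967 regions. The next was a peak in lin-15B replicate 2 alone (2335 regions), then in all lists but lin-15B replicate 1 (648), then in both lists coded SSTE100 (531). The gained pattern, with 487 regions, was the fifth by frequency, and 487 was 16.8% of the 2897 regions with no wild-type peak. The gained and lost counts depended on single libraries. Asking for lin-15B replicate 2 alone (without lin-15B replicate 1) gave 2828 gained regions, while leaving out any other list gave 538 to 710. With the lists kept to 1 code, 976 regions were gained within SSKK007 and 3059 within SSTE100. Lost regions numbered 754 without lin-15B replicate 2, 138 without wild-type replicate 1, 39 without wild-type replicate 2 and 14 without lin-15B replicate 1. When each list was trimmed to the same number of strongest peaks, 384 regions were gained and 126 were lost.

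**Figure D1:**
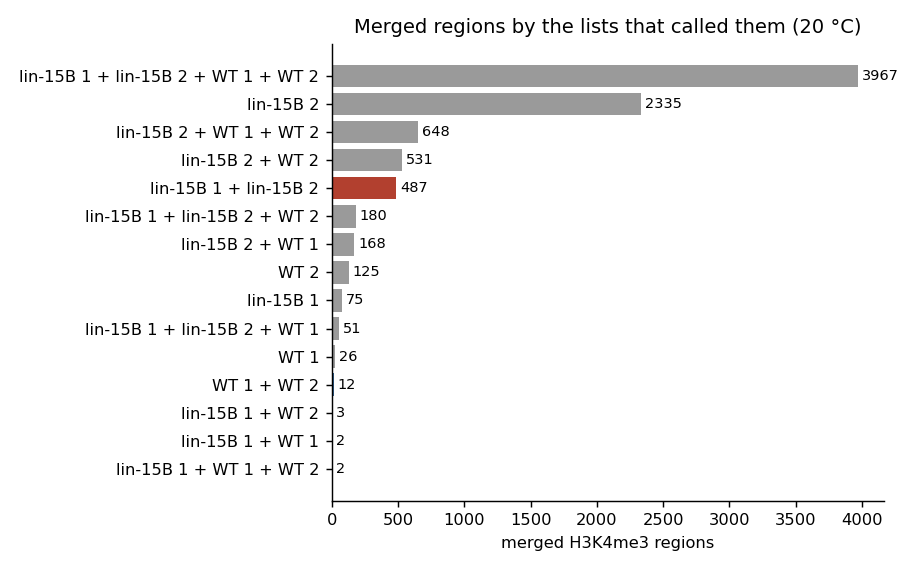
Number of merged H3K4me3 regions (horizontal axis) for each pattern of peak calls over the 4 lists of lin-15B and wild-type larvae at 20 °C. The 487 gained regions are the red bar, far below the 2335 regions of lin-15B replicate 2 alone, and the 12 lost regions are among the rarest.

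By median, gained regions were close in width to all merged regions, but narrower and weaker than the regions called in all 4 lists. The median width of gained regions was 729 bp (271 to 2981 bp), against 762 bp over all merged regions and 1234 bp over the regions called in all 4 lists. The median was 399.5 bp without lin-15B replicate 1 and 364 bp without lin-15B replicate 2. The fold enrichment at the strongest summit, the authors' own value for each peak and compared here only within a list, had a median of 3.63 in lin-15B replicate 1 (1.92 to 38.7). In lin-15B replicate 2 it was 5.17 (1.46 to 30.2). Regions called in all 4 lists had medians of 7.91 in replicate 1 and 13.7 in replicate 2. Set against its own list, the fold of a gained region stood at a median percentile of 33.9 in replicate 1 and 55.4 in replicate 2. The list's median fold was passed by 146 gained regions (30.0%) in replicate 1 and by 290 (59.5%) in replicate 2. The gained set therefore ran from peaks near the calling limit to some of the strongest of the mutant lists.

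Summits of the 2 mutant lists lay close together at gained regions, in part by definition, since both peaks had to fall in 1 merged region. The strongest summits of the 2 lin-15B lists lay a median of 31 bp apart, and 432 of 487 regions (88.7%) had them within 200 bp. At regions called in all 4 lists the median was 20 bp, and 90.7% had them within 200 bp. The gap from a gained region to the nearest region called in all 4 lists had a median of 5672 bp, and 78 (16.0%) had one within 1 kb. The remaining 4158 regions not called in all 4 lists had nearly the same values, a median of 5697 bp and 18.8% within 1 kb. Another gained region lay within 10 kb of 92 gained regions (18.9%). A single summit was called in both lin-15B lists at 335 of the 487 gained regions, and at 1626 of the 3967 regions called in all 4 lists.

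At the edge of the definition, the lowest −log10 q of a gained peak was 2.05 in lin-15B replicate 1 and 2.27 in replicate 2. In replicate 1, 63 gained regions had a −log10 q under 5, and 5 had one in replicate 2. Just outside, 51 regions had peaks in both lin-15B lists and wild-type replicate 1, with a median wild-type fold of 3.06. Another 180 had peaks in both lin-15B lists and wild-type replicate 2, with a median wild-type fold of 2.06. The 2335 regions of lin-15B replicate 2 alone had a median fold of 2.10 there.

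**Figure D2:**
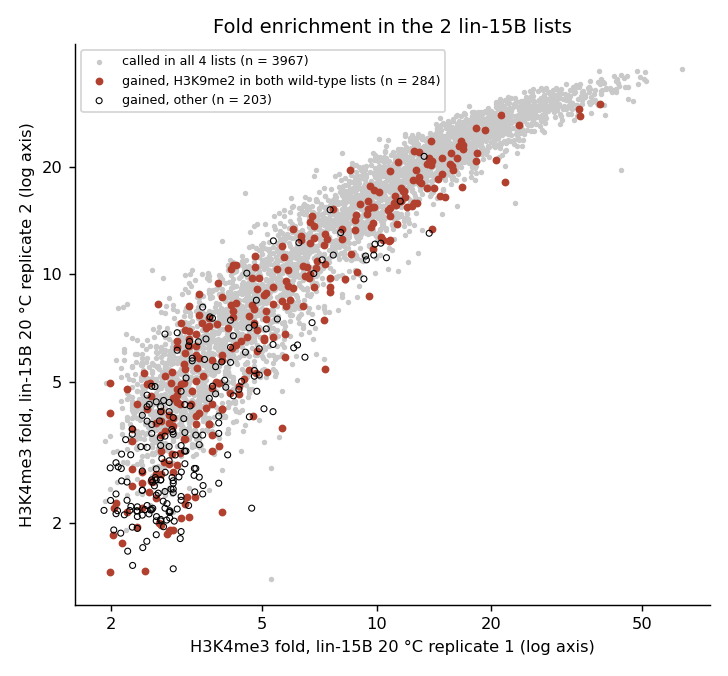
H3K4me3 fold enrichment in lin-15B 20 °C replicate 1 (horizontal, log axis) against replicate 2 (vertical, log axis), 1 point per region. Gained regions with H3K9me2 in both wild-type lists (filled, n = 284) reach folds of 38.7 and 30.2, while most other gained regions (open, n = 203) sit at the low end of the cloud of regions called in all 4 lists (grey, n = 3967).

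Gained regions lay mainly on the autosome arms, taken as the outer 30% at each end. Arms held 320 of them (65.7%), against 43.1% of all merged regions and 45.4% of the regions with no wild-type peak. Autosome centres held 135 (27.7%), against 40.7% of all regions. Chromosome X held 32 (6.57%), against 16.3% of all regions and 17.3% of those with no wild-type peak. On every autosome the percentage of regions that were gained was higher on the arms than in the centre. It was 8.57% on the arms and 3.07% in the centre of I, 6.59% and 3.13% on II, and 9.73% and 4.42% on III. It was 10.71% and 4.22% on IV, and 7.10% and 4.46% on V. By chromosome it was highest on IV (105 regions, 7.68%) and III (110 regions, 7.27%) and lowest on X (2.29%). The arm and X shares rested on lin-15B replicate 1: without it the arm share was 45.2% and the X share 17.4%. The X share was also 10.1% without lin-15B replicate 2 and 10.3% without wild-type replicate 2.

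H3K9me2, which played no part in choosing the regions, was called at fewer gained regions in lin-15B than in wild type. In lin-15B larvae at 20 °C, peaks overlapped 25.3% of gained regions in replicate 1 and 37.4% in replicate 2, against 59.5% and 68.2% in wild-type larvae, and the lists of the 2 genotypes did not overlap in range. Over all merged regions the values were 13.7% and 25.3% in lin-15B and 23.3% and 26.3% in wild type. Both lin-15B lists had a peak at 116 gained regions (23.8%, background 12.6%). The lin-15B lists differed in length, with 8273 peaks in replicate 1 (called at a q cutoff of 0.05) and 13766 in replicate 2 (0.01), against 8319 and 8499 in wild type (0.01). The part of list length and cutoff in the difference was not tested.

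In wild type, H3K9me2 peaks lay over most gained regions. Both wild-type lists had a peak at 284 gained regions (58.3%), where the background over all merged regions was 22%. The share was 22.1% at regions called in all 4 H3K4me3 lists and 18.7% at other regions with no wild-type H3K4me3 peak. The remaining gained regions had an H3K9me2 peak in 1 wild-type list (54 regions) or in neither (149).

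The higher share was not limited to the arms, where H3K9me2 is most abundant. On arms both wild-type H3K9me2 lists had a peak at 71.9% of gained regions, against 41.2% of all regions there. In autosome centres it was 33.3% against 8.74%. On X it was 28.1% (9 of 32 regions) against 4.07%. Without lin-15B replicate 1 among the H3K4me3 lists, 25.3% of the then 2828 gained regions carried H3K9me2 in both wild-type lists. Leaving out any other H3K4me3 list gave at least 47.5%.

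Of the 284 gained regions with H3K9me2 in both wild-type lists, 115 had a peak in neither lin-15B list, 54 in 1 and 115 in both. The 115 without it were 23.6% of all gained regions, where 5.52% of all merged regions had that pattern. Among regions with H3K9me2 in both wild-type lists, 40.5% of the gained ones had it in neither lin-15B list, against 26.7% of those with H3K4me3 in all 4 lists and 20.0% of other regions with no wild-type H3K4me3 peak. The opposite pattern, in both lin-15B and neither wild-type list, held for 1 gained region (background 0.708%). A lin-15B H3K9me2 peak lay within 1 kb of 48 of the 115 regions (41.7%), close to the 45.7% of the 475 merged regions with the same pattern. Their placement was also close to that of those 475, with 67.8% against 66.7% on arms, 29.6% against 31.2% in centres and 2.61% against 2.11% on X. The share of 23.6% became 7.28% without H3K4me3 lin-15B replicate 1, and 33.5% without H3K9me2 lin-15B replicate 2.

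Around the summits, the H3K9me2 peaks of wild type were centred on the place where lin-15B larvae had H3K4me3. In lin-15B lists at 20 °C, 17.0% and 23.0% of gained summits lay under an H3K9me2 peak, compared with 12.4% and 17.8% of positions 3 kb to either side. In wild-type lists 47.8% and 60.4% of the summits did, compared with 15.4% and 19.3% of positions 3 kb away. At summits every wild-type list was thus at least 24.8 percentage points above both lin-15B lists, and in the flanks the ranges of the genotypes overlapped. At 26 °C the same positions were covered at 20.3% and 20.3% of summits in lin-15B and at 54.2% and 40.7% in wild type. The lin-35 lists (34.7 to 37.6%) and the lin-37 lists (26.9 to 37.17%) lay above all 4 lin-15B lists and below all 4 wild-type lists. At summits of regions called in all 4 H3K4me3 lists, the lin-35 and lin-37 lists had 5.19 to 8.92%. That range overlapped both lin-15B (4.89 to 8.60%) and wild type (8.14 to 12.5%).

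**Figure D3:**
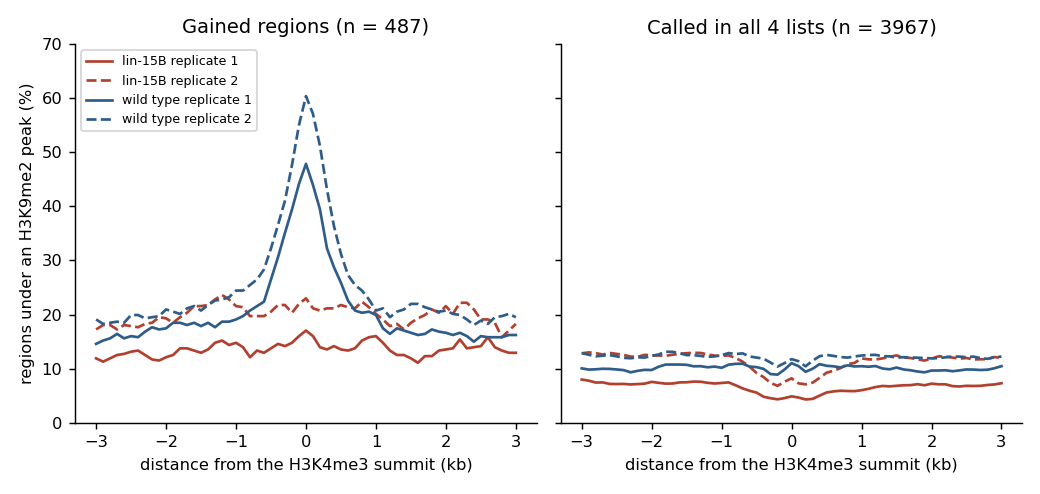
Percent of regions under an H3K9me2 peak (vertical) by distance from the H3K4me3 summit of lin-15B replicate 1 in kb (horizontal), for each 20 °C list of lin-15B and wild type, at gained regions and at regions called in all 4 H3K4me3 lists. At gained summits the lin-15B lists reach 17.0% and 23.0% and the wild-type lists 47.8% and 60.4%, while at 3 kb, averaged over both sides, all lie between 12.4% and 19.3%.

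**Figure D4:**
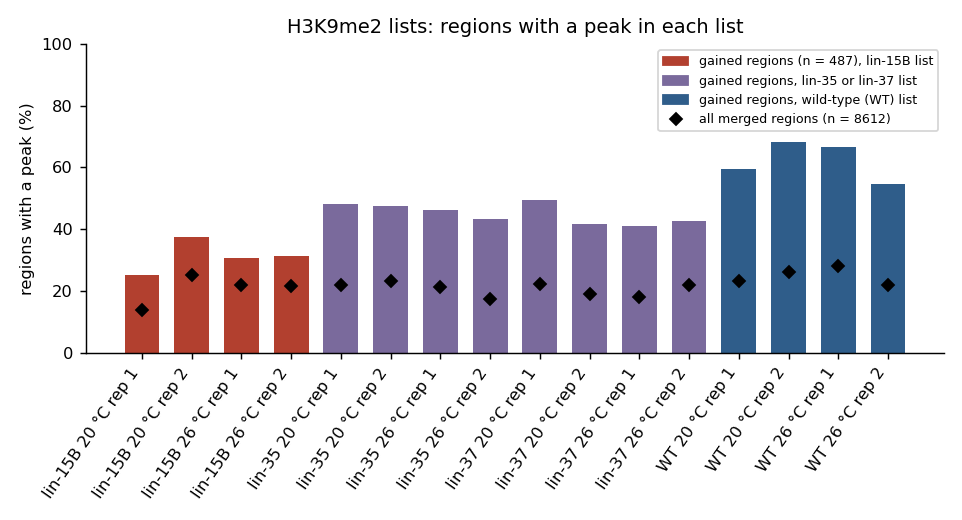
Percent of the 487 gained regions (bars) and of all 8612 merged regions (diamonds) with an H3K9me2 peak in each of 16 lists. Bars run from 25.3 to 37.4% in lin-15B lists, from 41.1 to 49.5% in lin-35 and lin-37 lists and from 54.6 to 68.2% in wild-type (WT) lists.

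The H3K9me2 lists at 26 °C, from further libraries, gave the same order. In lin-15B lists 30.8% and 31.4% of gained regions had an H3K9me2 peak. The lin-35 lists at 26 °C had one at 46.2% and 43.3%, the lin-37 lists at 41.1% and 42.5%, and the wild-type lists at 66.5% and 54.6%. Over both temperatures, the gained share divided by the share over all regions in the same list was 1.40 to 1.84 in lin-15B, 1.95 to 2.50 in lin-35 and lin-37 and 2.38 to 2.59 in wild type. By this ratio no lin-15B list came within the range of the other genotypes, while the range of lin-35 and lin-37 overlapped that of wild type.

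Gained regions with and without wild-type H3K9me2 had unlike H3K4me3. The 284 with H3K9me2 in both wild-type lists had a median fold of 4.78 in lin-15B replicate 1 and 7.88 in replicate 2, at median percentiles of 45.5 and 64.7. Of the 284, 81.0% lay on arms, close to the 80.8% of all merged regions with H3K9me2 in both wild-type lists. The 149 with H3K9me2 in neither wild-type list had a median fold of 2.78 in both lin-15B lists, at percentiles of 16.8 and 33.4. Of these 36.2% lay on arms, against 29.9% of all merged regions with H3K9me2 in neither. Gained regions without wild-type H3K9me2 thus had the lower median fold in both lin-15B lists. They were also narrower, with a median width of 612 bp against 822 bp for the 284. A call of H3K9me2 needed an overlap of only 1 bp, and the part of width in the difference was not tested.

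H3K4me3 at 26 °C gave libraries that the choice of regions had not used. In lin-15B larvae at 26 °C, 74.3% (replicate 1) and 94.3% (replicate 2) of the gained regions had a peak, against 29.2% and 15.4% in wild-type larvae at 26 °C. Over all merged regions these lists had peaks at 58.9% and 83.2% in lin-15B and at 75.6% and 62.0% in wild type. At the other regions with no wild-type peak at 20 °C, the values were 15.8% and 56.2% in lin-15B and 38.8% and 15.9% in wild type. Against these other regions, lin-15B at 26 °C had the higher share at gained regions in both replicates. Wild type at 26 °C had a lower share in replicate 1 (29.2% against 38.8%). In replicate 2 its share was nearly the same (15.4% against 15.9%). By definition gained regions had peaks in both lin-15B lists and neither wild-type list at 20 °C. Their distance from the shares over all merged regions is therefore in part set by the rule.

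Peaks in both lin-15B 26 °C lists were found at 362 gained regions (74.3%, background 58.5%), and at 25.4% of those gained without lin-15B replicate 1. Peaks in both lin-15B and neither wild-type list at 26 °C were found at 269 (55.2%, background 5.68%). In the other direction, 3 gained regions had peaks in both wild-type and neither lin-15B list at 26 °C (background 1.57%). No wild-type 26 °C list had a peak at 336 gained regions (69.0%, background 22.7%), 1 had one at 85 and both had one at 66 (13.6%, background 60.3%). The share of 55.2% was 16.5% among the 2828 regions gained without lin-15B replicate 1, and 40.7 to 50.6% with another list left out. Of the 284 with wild-type H3K9me2, 70.1% had the same pattern at 26 °C, and of the 149 without it 22.1% did.

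**Figure D5:**
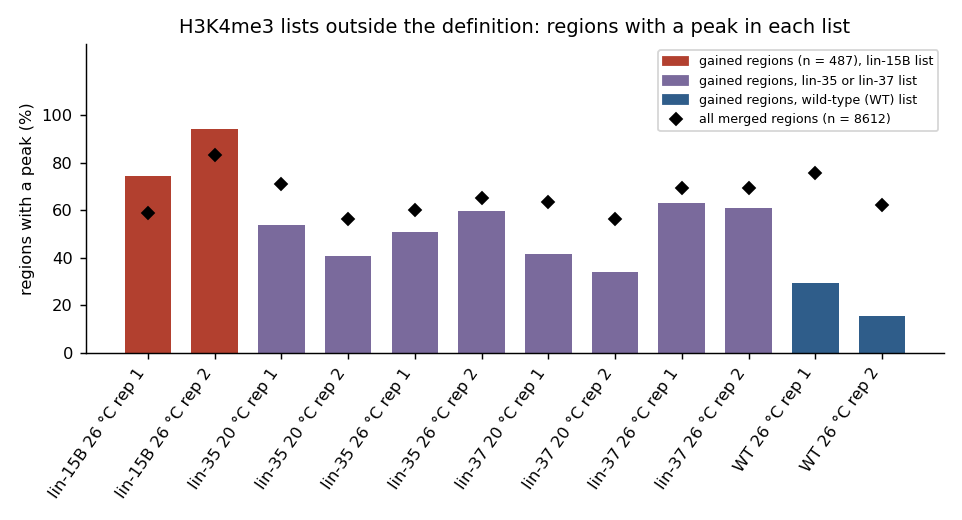
Percent of the 487 gained regions (bars) and of all 8612 merged regions (diamonds) with an H3K4me3 peak in each of the 12 lists that did not define them. The lin-15B 26 °C bars (74.3 and 94.3%) stand above their diamonds, and the wild-type (WT) 26 °C bars (29.2 and 15.4%) stand furthest below theirs.

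The other synMuv B mutants had H3K4me3 at part of the gained regions. In lin-35 larvae 53.8% and 40.9% of gained regions had a peak at 20 °C, and 50.9% and 59.5% at 26 °C. In lin-37 larvae it was 41.7% and 33.9% at 20 °C, and 63.2% and 61.0% at 26 °C. Each of these 8 lists lay above both wild-type 26 °C lists, and each lay below its own share over all merged regions (56.2 to 71.2%). That overall share includes the regions called in all 4 lists at 20 °C, of which 90.0% had a peak in all 8. The other regions with no wild-type peak at 20 °C were mostly called in lin-15B replicate 2 alone. At these the 8 lists had peaks at 6.85 to 27.4%, and in each list the gained share was higher. All 8 had a peak at 110 gained regions (22.6%, background 45.1%) and none had one at 87 (17.9%, background 13.5%), which leaves 290 with a peak in some.

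Regions shared with lin-35 and lin-37 were the stronger ones in lin-15B. The 110 with a peak in all 8 lists had a median fold of 6.88 in lin-15B replicate 1 and 11.7 in replicate 2, and 81.8% had H3K9me2 in both wild-type lists. The 87 with a peak in none had medians of 3.28 and 4.11, and 59.8% had H3K9me2 there. Peaks in both lin-15B lists at 26 °C, in no lin-35 or lin-37 list and in no wild-type 26 °C list were found at 58 gained regions (11.9%, background 1.45%). Peaks in all 10 mutant lists and no wild-type 26 °C list were found at 62 (12.7%, background 0.813%).

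The 12 strongest gained regions, ranked by the lower of their 2 within-list percentiles, all lay on autosome arms, 6 on III, 3 on IV, 2 on I and 1 on II. Their folds were 16.8 to 38.7 in lin-15B replicate 1 and 20.9 to 30.2 in replicate 2. All 12 had H3K9me2 in both wild-type lists at 20 °C and H3K4me3 in both lin-15B lists at 26 °C. In lin-15B at 20 °C, 7 had H3K9me2 in both lists and 5 in neither. In wild type at 26 °C, H3K4me3 was called in neither list at 9 of them, in 1 list at 2 and in both at 1. A call needed an overlap of only 1 bp, and at 4 of the 7 both lin-15B lists covered fewer bp than either wild-type list. At III:3499714-3500671, for example, H3K9me2 covered 54 and 417 bp in lin-15B, against 958 and 958 bp in wild type.

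The first by rank, III:1519936-1521794 (1859 bp, left arm of III), had folds of 38.7 and 30.2 in the lin-15B lists at 20 °C. No peak was called there in the wild-type lists at 20 °C, but wild-type replicate 1 at 26 °C had one (fold 2.49). The region lay only 71 bp from a region called in all 4 lists. Merging peaks up to 200 bp apart would join it to that region, so it would not count as gained. The same holds for I:12044890-12046788, also among the 12, with a gap of 180 bp. H3K9me2 covered all 1859 bp in both lin-15B and both wild-type lists. The second, IV:193914-194999 (1086 bp, left arm of IV), had folds of 34.0 and 29.2 in lin-15B, with H3K9me2 in neither lin-15B list and in both wild-type lists. Next came III:1411877-1414379 with folds of 34.3 and 28.0, and III:195168-198106 with folds of 23.7 and 26.4. All 4 lie on the left arms of their chromosomes.

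Among the gained regions that had H3K9me2 in both wild-type and neither lin-15B list, the 8 strongest had folds of 15.7 to 34.0 in lin-15B replicate 1 and 19.6 to 29.2 in replicate 2. They lay on IV (5), III (2) and X (1). None had H3K9me2 in a lin-15B list at 26 °C, all 8 had H3K4me3 in both lin-15B lists at 26 °C, and 7 had it in neither wild-type list there. Besides IV:193914-194999 they include III:875331-876784 (folds of 21.2 and 28.2), IV:13686608-13687287 (18.2 and 25.8) and X:8147359-8148019 (15.7 and 20.2). In wild type at 26 °C, H3K9me2 was called in neither list at IV:13686608-13687287 and in both lists at the others of the 8. No lin-35 or lin-37 list had H3K9me2 at 3 of the 8, and all lin-35 and lin-37 lists had it at 2.

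The 4 strongest gained regions on X had folds of 5.73 to 15.7 in lin-15B replicate 1 and 6.79 to 20.2 in replicate 2. Apart from X:8147359-8148019 they were X:10475638-10476632 (11.2 and 16.6), X:8410514-8410982 (9.26 and 9.72) and X:10749-11739 (5.73 and 6.79). H3K9me2 was called in both wild-type lists at 3 of the 4. All 4 had H3K4me3 in both lin-15B lists at 26 °C, and 3 had it in neither wild-type list there.

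The widest gained region, IV:4176103-4179083 (2981 bp), had folds of 11.6 and 17.5 in lin-15B and H3K9me2 in both lists of both genotypes. At the other end, the 3 weakest gained regions had folds of 1.92 to 2.47 in lin-15B replicate 1 and 1.46 to 2.17 in replicate 2. Each of these 3 had an H3K4me3 peak in lin-15B replicate 2 at 26 °C and none in replicate 1. Those lists had peaks at 83.2% and 58.9% of all merged regions. X:6134383-6134938, 1 of the 3, also had a peak in wild-type replicate 1 at 26 °C.

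The 12 lost regions were few, narrow and weak. Their widths were 264 to 521 bp, and their folds in the wild-type lists 2.40 to 5.25 in replicate 1 and 1.76 to 4.83 in replicate 2. All 12 lay under the list's median fold in wild-type replicate 1, and 11 did in replicate 2. They lay on I (4), II (3), III (2) and X (3). The strongest, X:1419413-1419850, had folds of 5.25 and 4.83 in wild type, and X:1691982-1692272 had 3.79 and 2.64. H3K9me2 was called in both lin-15B lists at 3 lost regions (25%, background 12.6%) and in both wild-type lists at 4 (33.3%, background 22%).

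At 26 °C, no lost region had H3K4me3 in both lin-15B lists (background 58.5%), 4 had it in 1 and 8 in neither. In wild type at 26 °C, 8 had it in both lists (66.7%, background 60.3%), 2 in 1 and 2 in neither (16.7%, background 22.7%). Peaks in both wild-type and neither lin-15B list at 26 °C were found at 4 of the 12 (background 1.57%).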

How the data were processed

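H3K4me3 and H3K9me2 were measured by ChIP-seq in whole L1 larvae, with 1 deposited peak list per library. The submitters' processing notes name Bowtie 1.1.2, MACS2 and build ce10; a version of MACS2 is not given in the sources used here. An input was paired with every library, per the labels. The deposited H3K4me3 lists give a fold (ratio), a −log10 p and a −log10 q for each summit. The deposited H3K9me2 lists give score columns, which were not used. Peak names give a q cutoff of 0.01, or 0.05 in 1 H3K9me2 list.

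H3K4me3 sub-peaks with the same start and end were collapsed to 1 peak with its highest fold. Peaks of the 4 lists were merged on an overlap of 1 bp, and a region was called in any list with a peak overlapping it by 1 bp. Arms were the outer 30% of each autosome, taking the highest peak end as its length. Named regions were fixed by rank of the lower within-list fold percentile, with separate ranks for regions that lost H3K9me2, for X, for the widest and for the weakest; of the lost ones the strongest are named and the rest given by range. Counts per library were compared by exact permutation tests. Alternatives were list length, q, merging, bins, library code, arm size and leaving out each list. Code was tested on simulated lists and run in Python 3.11.15 with pandas 2.3.3 and scipy 1.17.1. Members, lists and comparisons were chosen with earlier results of these data known. H3K27me3, H3K36me3 and input samples were not analysed here.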

Additional observations from a re-analysis of the deposited data

How the results depend on the processing

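Of 118 alternative values for 9 results, 59 stayed close to the value reported and 59 moved. Close meant within a factor of 1.5 for the gained and lost counts. For shares and width it meant inside a 95% interval taken over the gained regions. That interval treats regions as independent and does not measure the spread between libraries. Leaving out 1 H3K4me3 or H3K9me2 list gave 538 to 2828 gained and 14 to 754 lost regions, arm shares of 45.2 to 65.8% and X shares of 7.62 to 17.4%. The same gave a median width of 364 to 761 bp and H3K9me2 in both wild-type lists at 25.3 to 68.2%. It gave H3K9me2 in both wild-type and neither lin-15B list at 7.28 to 33.5%, H3K4me3 in both lin-15B 26 °C lists at 25.4 to 73.2%, and H3K4me3 in both lin-15B and neither wild-type list at 26 °C at 16.5 to 50.6%. With equal peak numbers, lost regions were 126, and gained regions had a median width of 812 bp. H3K9me2 was in both wild-type lists at 65.9% of them and in both wild-type and neither lin-15B list at 28.6%. H3K4me3 was in both lin-15B 26 °C lists at 90.4%, and also in neither wild-type list there at 65.6%. Within code SSKK007, 976 gained and 1098 lost regions were found. Of the gained ones 54.3% were on arms and 12.3% on X, the median width was 361.5 bp, and the same 4 shares of the H3K9me2 and 26 °C patterns were 38.8%, 15.7%, 57.4% and 32.8%. Within code SSTE100, 3059 gained and 145 lost regions were found, with 45.6% of the gained ones on arms, 17.4% on X, a width of 405 bp and the same 4 shares at 25.4%, 7.09%, 26.3% and 15.4%. With 1 kb bins the width was 1000 bp, the share that lost H3K9me2 19.4% and the share repeating at 26 °C 40.7%. With a −log10 q of at least 5 asked of the calling lists, the 26 °C shares were 80.4% and 60.3%, and with it asked of each list 78.1% and 57.05%. Arms of the outer 25% held 56.7%. H3K9me2 in wild type was 53.2% with a 200 bp overlap and 69.4% when 1 wild-type list sufficed. The cause of these moves was not tested. The shares of gained regions that lost H3K9me2 or repeated at 26 °C were added after seeing the data. No paired analysis was possible because the regions come from yes-or-no calls with no test that could carry a block; calls within each code, which the replicate numbers match, are given above. Depth is unknown, and with 2 lists a group no per-library test could pass 0.05.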

Other observations

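At the 3967 regions with H3K4me3 in all 4 lists, the H3K9me2 lists of the mutants covered fewer summits than flanks, and those of wild type had the higher ratio of summit to flank. In lin-15B lists the share of these summits under an H3K9me2 peak was 4.89% and 8.22% at 20 °C and 8.17% and 8.60% at 26 °C, against 7.65%, 12.4%, 10.6% and 9.89% of positions 3 kb away. In wild-type lists it was 11.02% and 11.8% at 20 °C and 12.5% and 8.14% at 26 °C, against 10.3%, 12.6%, 11.2% and 8.36% of positions 3 kb away. Summit over flank was 0.639 to 0.869 in the 4 lin-15B lists, 0.598 to 0.905 in the 8 lin-35 and lin-37 lists and 0.938 to 1.12 in the 4 wild-type lists. The ranges of each mutant and wild type did not overlap. These summits were those of H3K4me3 in lin-15B replicate 1. With the summits of wild-type replicate 1 the ratio was 0.611 to 0.792 in lin-15B, 0.559 to 0.839 in lin-35 and lin-37 and 0.841 to 1.04 in wild type, so the gap between mutants and wild type was then narrow.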
